A study of Drosophila melanogaster with 16 samples.

Results

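The 5 genes described here make or move the eye pigments of Drosophila melanogaster: white (w), scarlet (st), brown (bw), vermilion (v) and cinnabar (cn). They were taken by symbol from the 17753 genes of the deposited tables, and all 5 were found and passed the filter on low counts. The group was selected on the measured level of white in the mutants against wild type, so the mutant values of white are given as a description with no test. Polyadenylated RNA of whole embryos was measured in 16 libraries, in a study of Lola-I, a protein isoform of the lola locus. There were 4 libraries of the transheterozygous Lola-I mutant ORE50/ORC4 aged 14 to 17 h and 4 of the Lola-I mutant ORC4 of the same age. Wild-type OregonR embryos gave 5 libraries at 14 to 17 h (replicates 1, 2, 3, 5 and 6) and 3 libraries at 2 to 4 h. The labels used here give no eye-colour allele, balancer or other marker for the mutant stocks, so the Lola-I genotype and any other difference between stocks cannot be told apart. They also do not say that replicates came from separate collections, so p-values measure the spread between these samples, which may be technical.

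Fly eye color comes from brown ommochromes, made from tryptophan, and red pteridines, made from GTP. The v gene encodes tryptophan dioxygenase, the enzyme of the opening step of the ommochrome route, and cn encodes kynurenine hydroxylase, which acts further along it. The other three members encode ABC transporter subunits of pigment granules that work in pairs: White pairs with Scarlet to carry ommochrome precursors and with Brown to carry pteridine precursors. Several of these genes also act outside the eye, among other places in the Malpighian tubules, the excretory organs of the fly, which store tryptophan metabolites.

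Library totals ran from 9025882 to 13226262 estimated counts in ORE50/ORC4, from 27298377 to 28832013 in ORC4, from 10202584 to 32521626 in wild type at 14 to 17 h and from 14472809 to 31783930 in wild type at 2 to 4 h. Depth therefore separated the 2 mutants completely, while late wild type held both depths. A list of 7 genes of differentiated tissues, carried by the muscle genes Mlc2, Act57B and Mhc, summed to 16467 to 19759 TPM in ORE50/ORC4, 16859 to 19591 TPM in ORC4, 19171 to 20164 TPM in late wild type and 136 to 243 TPM in early wild type. Between the stages of wild type 5 of the 7 rose, btl fell (-1.15, edgeR adjusted p = 1.5e-05) and elav was not called (-0.13, edgeR adjusted p = 0.295). A list of 7 maternal and blastoderm patterning genes summed to 61.4 to 82.5 TPM in ORE50/ORC4 and 92.1 to 128 TPM in ORC4. In late wild type that list gave 84.2 to 111 TPM and in early wild type 618 to 728 TPM. The ORE50/ORC4 sums thus lay below those of all other late libraries, and the part of this in the members' values was not tested. Much of that gap lay in bcd, with means of 0.385 TPM in ORE50/ORC4, 37.8 TPM in ORC4 and 22.9 TPM in late wild type. Among the other tested genes of the list, nanos and eve were lower than late wild type in both mutants. Against late wild type sna, Sxl and gt were not called in ORE50/ORC4. TPM is an abundance scaled for gene length and library depth. The lola locus as a whole was lower in ORE50/ORC4 than in late wild type (log2 fold change -0.42, edgeR adjusted p = 0.0117), and in ORC4 the test was not passed (0.17, edgeR adjusted p = 0.31). A value over all isoforms does not check a change in Lola-I alone.

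The lengths in the tables are whole gene spans, introns included, and this bears on 4 of the 5 members, since a read in a shared span can be assigned to either gene. In the BDGP6 annotation w lies at X:2790599-2796466 on the minus strand, with 6 exons covering 40.1% of its span, wholly inside kirre on the plus strand (X:2740384-3134532). The st gene, at 3L:16497651-16500460 on the plus strand, lies wholly inside CG43373 on the minus strand. An antisense RNA, asRNA:CR45108, covers 76.4% of cn, which is at 2R:7782797-7785067 on the minus strand. The bw gene, at 2R:23527805-23538499 on the minus strand, shares only 4.3% of its span with the gene mi, but an annotated LTR retrotransposon, which touches none of its exons, fills 70.3% of that span. Only v, at X:10923972-10925631 on the plus strand, overlapped no gene, and its counts were whole numbers in all 16 libraries. Fractional counts, which arise when reads are divided between features, were found for w in 12 libraries, for cn in 15 and for st and bw in 16.

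**Figure D1:**
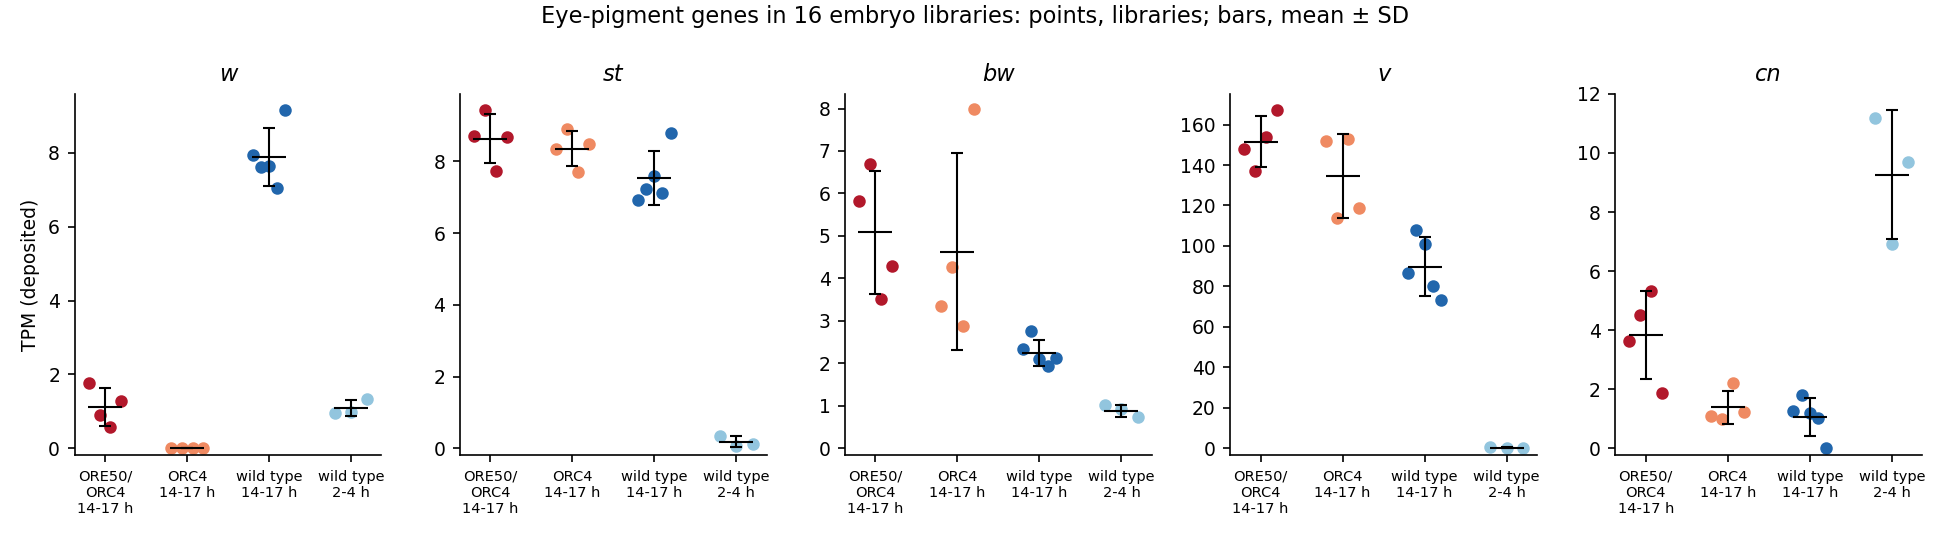
Deposited TPM of the 5 eye-pigment genes, with 1 panel per gene, 1 point per library and bars for the mean ± SD of each group. The w points lie at 0 in all 4 ORC4 libraries and between 7.06 and 9.15 TPM in late wild type, while v is higher in both mutants than in late wild type.

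White, the transporter subunit shared by both pigment routes, was listed at 0 counts in every ORC4 library. In ORE50/ORC4 it had 1.77, 0.903, 0.568 and 1.27 TPM, against 7.94, 7.63, 7.64, 7.06 and 9.15 TPM in late wild type. The 3 groups did not overlap, but w was chosen on its level in the mutants against wild type, so this is description only. The ORE50/ORC4 mean was 1.13 ± 0.516 TPM (SD, n = 4), which is 14.3% of the late wild-type mean of 7.88 ± 0.776 TPM (SD, n = 5), or 6.99-fold lower. The ORE50/ORC4 libraries spread 3.12-fold among themselves and rested on few reads, 14.5 to 58.4 estimated counts. The ORC4 libraries together held 0 counts of w among 111664894. With a floor of 3 counts per library, 0.104 to 0.110 CPM (counts scaled to the library total), w was at least 185-fold lower in ORC4 than in late wild type, or at least 162-fold when the lowest wild-type library is set against the highest floor. These floors cover counting error only.

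The lower w was not matched by a higher kirre, which encodes a cell adhesion protein of muscle founder cells. Alone, kirre had 42.5 to 52.2 CPM in ORE50/ORC4, 41.7 to 46.2 CPM in ORC4 and 51.8 to 60.4 CPM in late wild type. It was lower in ORE50/ORC4 (log2 fold change -0.29 ± 0.07 SE, edgeR adjusted p = 0.00343) and in ORC4 (-0.40 ± 0.07 SE, edgeR adjusted p = 0.000681) than in late wild type. In each mutant 17 of 19 alternatives kept the call, and limma on log2 TPM did not. On log2(TPM + 1) the changes shrank to -0.08 and -0.07. That scale could hardly show a change, since kirre had only 0.216 to 0.346 TPM in the late libraries. On log2(TPM + 0.1) they were -0.28 and -0.25 (limma adjusted p = 0.146 and 0.238). Summed, w and kirre had 48.9 ± 4.21 CPM in ORE50/ORC4 (SD, n = 4), 43.8 ± 2.08 CPM in ORC4 (SD, n = 4) and 76.4 ± 5.06 CPM in late wild type (SD, n = 5). The sum was 64.0% of late wild type in ORE50/ORC4 and 57.4% in ORC4. Of the sum, w made up 3.64 to 9.99% in ORE50/ORC4, none in ORC4 and 24.8 to 28.1% in late wild type.

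**Figure D2:**
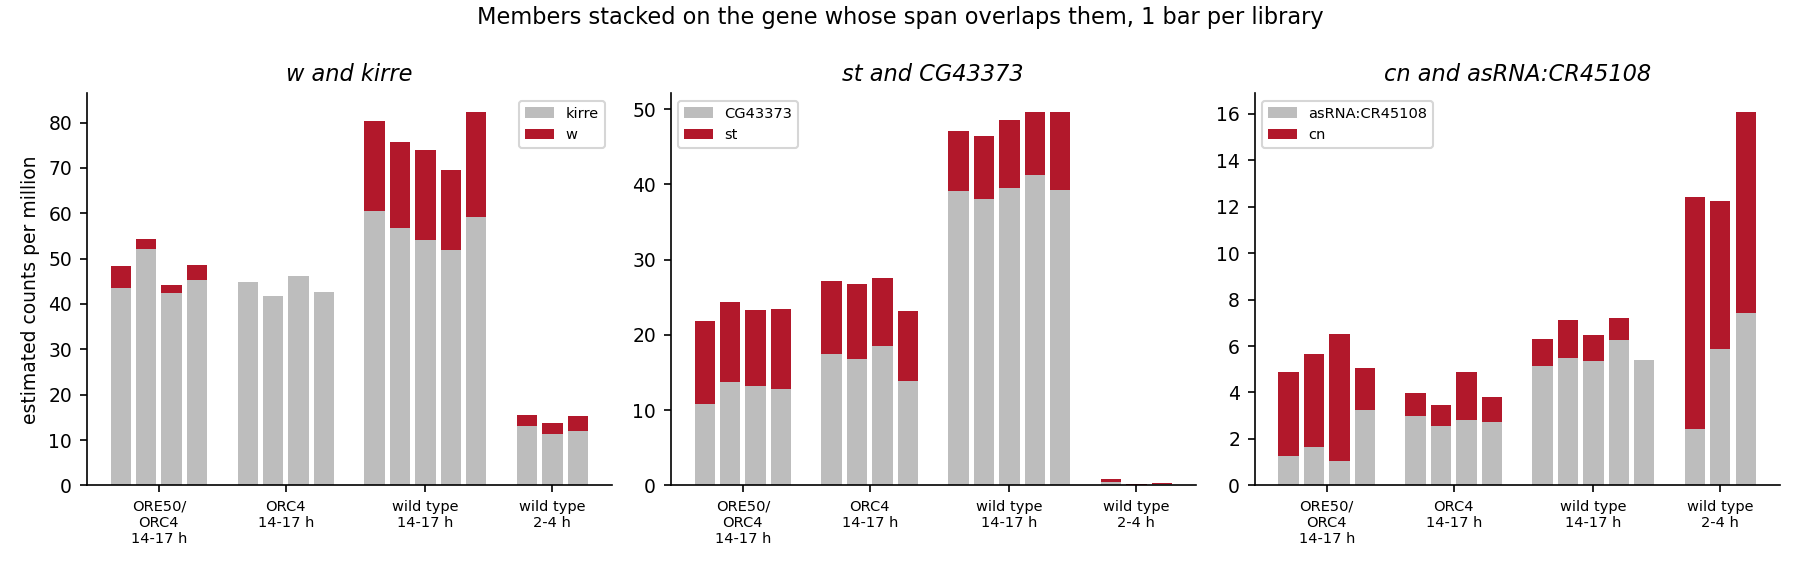
Estimated counts of w, st and cn, in red and scaled to the library total (CPM), stacked on the gene that shares their span, in grey, with 1 bar per library. The w part is missing in ORC4 and the kirre part is not taller there, whereas the st part keeps its height in the mutants while CG43373 is shorter.

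Of 26 genes within 100 kb of w, 19 could be tested. In ORE50/ORC4 against late wild type 6 were lower and 5 higher, with a median log2 fold change of 0.09, where 27.0% of all tested genes were lower and 27.0% higher. In ORC4 against late wild type 5 were lower and the others were not called, with a median of -0.09, where 17.2% of all tested genes were lower and 15.5% higher. The counts in ORE50/ORC4 are near those shares. The nearest, CG32795 at 6.8 kb, had a log2 fold change of -0.04 in ORE50/ORC4 (edgeR adjusted p = 0.734) and -0.21 in ORC4 (edgeR adjusted p = 0.0649), though it too lies inside kirre. The lowest neighbour was fs(1)Ya, a maternal nuclear envelope gene, at -2.97 in ORE50/ORC4 and -3.87 in ORC4. Of 8980 genes with a late wild-type mean of at least 100 counts, 11 were at 0 in all ORC4 libraries, and w was the 1 among them on the X chromosome. Of these 11, 8 were also at 0 in all ORE50/ORC4 libraries, while w and asRNA:CR31144 were above 3 counts in each of them. This count was made after the values were seen.

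**Figure D3:**
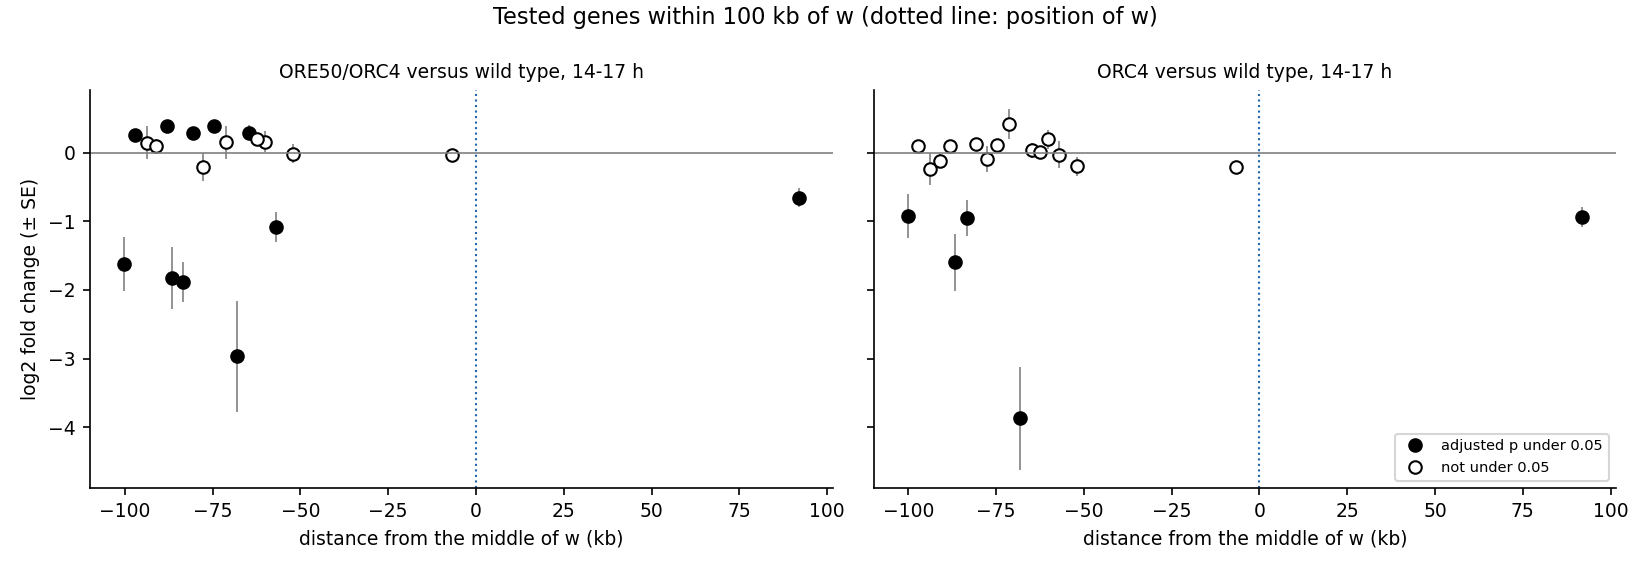
Log2 fold change ± SE of each tested gene within 100 kb of w, by distance from the middle of w, in ORE50/ORC4 (left) and ORC4 (right) against late wild type. Filled points passed an edgeR adjusted p of 0.05, and the nearest gene, at 6.8 kb, did not pass in either mutant.

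The partners of White were still detected in both mutants. All 4 testable members were higher in ORE50/ORC4 than in late wild type, in a comparison where 54.0% of the 11431 tested genes were called, with 27.0% called higher and 27.0% lower. On log2(TPM + 1) with limma the calls over all genes leaned lower, with 3522 lower and 2164 higher, against 3087 lower and 3083 higher in the edgeR fit. In ORC4 against late wild type 2 of the 4 were higher, bw and v, where 32.7% of all tested genes were called, 15.5% as higher and 17.2% as lower. Groups lay wholly above late wild type for 19.7% of all tested genes in ORE50/ORC4 and for 13.4% in ORC4. The late wild-type libraries serve both of these comparisons. In bulk RNA fewer cells of a type and less RNA per cell cannot be told apart, here and below.

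Scarlet, the ommochrome partner of White, had 8.71, 9.42, 7.74 and 8.67 TPM in ORE50/ORC4, 8.33, 8.91, 7.71 and 8.47 TPM in ORC4 and 6.92, 7.22, 7.59, 7.13 and 8.79 TPM in late wild type. The groups overlapped. Its log2 fold change was 0.28 in ORE50/ORC4 (95% interval 0.07 to 0.49, edgeR adjusted p = 0.0246) and 0.09 in ORC4 (-0.11 to 0.29, edgeR adjusted p = 0.498). The call in ORE50/ORC4 was lost against the 2 wild-type libraries of like depth (0.16, edgeR adjusted p = 0.278) and with limma on log2(TPM + 1) (0.18, adjusted p = 0.108). It was lost too when ORE50/ORC4 replicate 1 (edgeR adjusted p = 0.0547) or 4 (0.0545), or wild-type replicate 1 (0.0597) or 2 (0.0524), was left out. CG43373, whose span holds st, fell in both mutants, by 1.63 on the log2 scale in ORE50/ORC4 and by 1.27 in ORC4 (edgeR adjusted p = 9.99e-08 and 7.38e-07). Summed with it, st turned round, to -1.04 in ORE50/ORC4 and -0.91 in ORC4. Per kilobase of exon, the ratio of st to w was 2.48 to 6.88 in ORE50/ORC4 and 0.440 to 0.510 in late wild type, and ORC4 has none because w was at 0.

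Brown, the pteridine partner of White, had 5.83, 6.69, 3.52 and 4.29 TPM in ORE50/ORC4, 3.36, 4.27, 2.88 and 7.99 TPM in ORC4 and 2.33, 2.75, 2.10, 1.94 and 2.12 TPM in late wild type. Every mutant library was above every late wild-type library. The log2 fold change was 1.25 in ORE50/ORC4 (95% interval 0.73 to 1.77, edgeR adjusted p = 0.000882) and 0.96 in ORC4 (0.44 to 1.47, edgeR adjusted p = 0.00843). Without ORC4 replicate 4, its highest library, the ORC4 change was 0.60 (edgeR adjusted p = 0.0207). With replicates 1, 2 and 3 of each group alone it was 0.54 and no longer passed (edgeR adjusted p = 0.081). A replicate block on those same libraries gave 0.53, which passed (edgeR adjusted p = 0.0134). The part of the retrotransposon in these counts was not tested. Summed with mi, which covers 4.3% of bw and whose own counts lie mostly outside it, the change was 0.42 in ORE50/ORC4 (edgeR adjusted p = 0.034) and 0.33 in ORC4, where it no longer passed (edgeR adjusted p = 0.118).

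Vermilion, the most abundant member and the one whose counts no other gene shares, was higher in both mutants. It had 148, 137, 154 and 167 TPM in ORE50/ORC4, 152, 114, 153 and 119 TPM in ORC4 and 86.6, 108, 101, 80.0 and 73.4 TPM in late wild type. Every mutant library was above every late wild-type library. The log2 rise was 0.85 in ORE50/ORC4 (95% interval 0.55 to 1.14, edgeR adjusted p = 0.000217) and 0.53 in ORC4 (0.23 to 0.82, edgeR adjusted p = 0.00991). At like depth the change was 1.04 in ORE50/ORC4 against wild-type replicates 5 and 6 (edgeR adjusted p = 0.00128). In ORC4 against replicates 1, 2 and 3 it was 0.41 and no longer passed (edgeR adjusted p = 0.0600).

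Cinnabar was a low gene at this age. It had 3.63, 4.50, 5.33 and 1.88 TPM in ORE50/ORC4, 1.10, 0.993, 2.21 and 1.24 TPM in ORC4 and 1.27, 1.80, 1.18, 1.04 and 0 TPM in late wild type. The ORE50/ORC4 libraries lay above all of late wild type, and ORC4 overlapped both. The log2 fold change was 1.86 in ORE50/ORC4 (95% interval 0.79 to 2.92, edgeR adjusted p = 0.00662) and 0.24 in ORC4 (-0.84 to 1.31, edgeR adjusted p = 0.751). Against the 2 wild-type libraries of like depth the ORE50/ORC4 change was 2.90 (edgeR adjusted p = 0.0139), and 1 of those libraries lists cn at 0. Its antisense partner moved the other way, by -1.61 in ORE50/ORC4 and -1.02 in ORC4 (edgeR adjusted p = 0.000197 and 0.00461). Summed, the pair had 5.54 ± 0.747 CPM in ORE50/ORC4 (SD, n = 4), 4.03 ± 0.613 CPM in ORC4 (SD, n = 4) and 6.51 ± 0.739 CPM in late wild type (SD, n = 5). The sum was not called in ORE50/ORC4 (log2 fold change -0.22, edgeR adjusted p = 0.183) and was lower in ORC4 (-0.72, edgeR adjusted p = 0.00126).

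**Figure D4:**
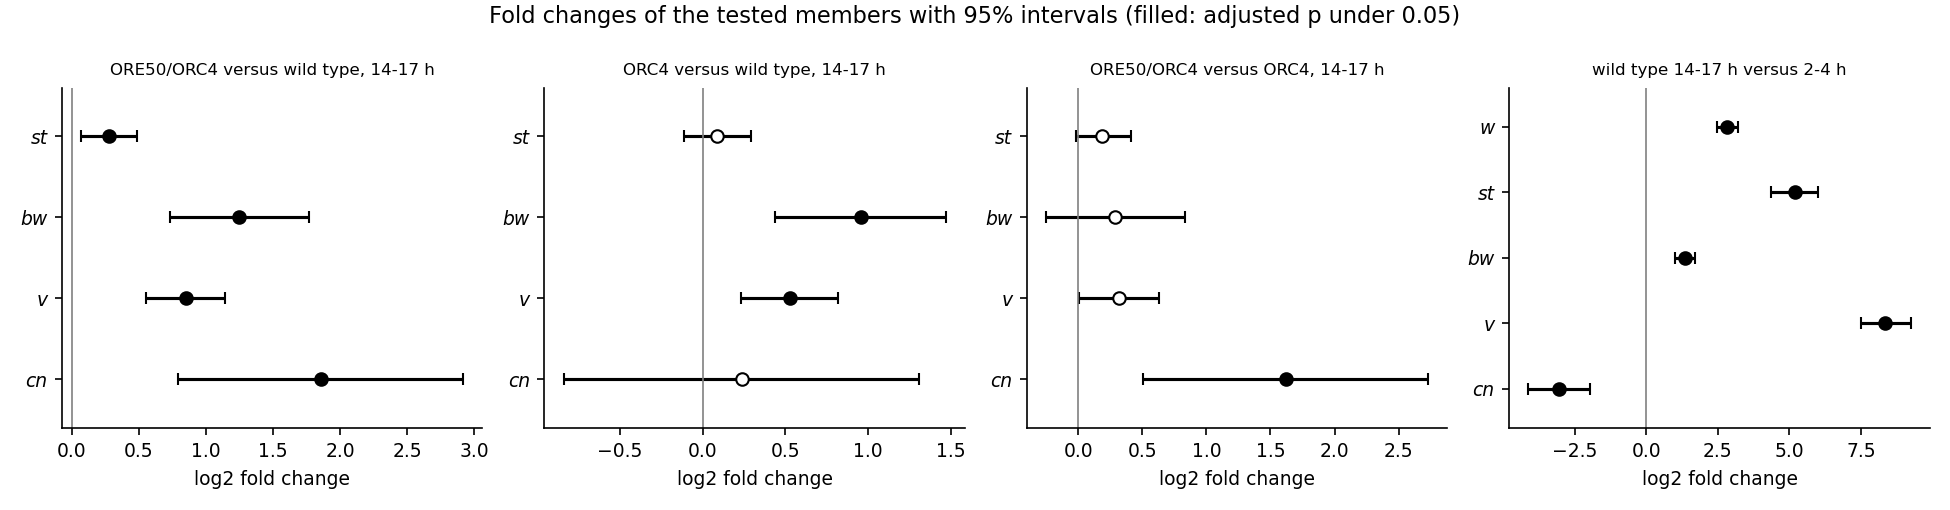
Log2 fold changes of the tested members with 95% intervals, in 1 panel per comparison with its own axis. Filled points passed an edgeR adjusted p of 0.05: 4 of 4 in ORE50/ORC4 and 2 of 4 in ORC4 against late wild type, 1 of 4 between the mutants and 5 of 5 between the stages. In the same order, 54.0%, 32.7%, 37.3% and 89.9% of all tested genes were called.

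Set directly against each other, the mutants differed in 1 of the 4 testable members, where 37.3% of all tested genes were called and 19.9% were called higher. The split of those calls depended on the scale, with 1992 lower and 2271 higher in edgeR and 2673 lower and 846 higher with limma on log2(TPM + 1). On log2(TPM + 0.1) the median over all genes was -0.12, against 0.03 in edgeR. The called member was cn, with a log2 fold change of 1.62 in ORE50/ORC4 over ORC4 (95% interval 0.51 to 2.73, edgeR adjusted p = 0.0253), although the libraries overlapped. The call was lost in 7 of 19 alternatives, with adjusted p up to 0.184, and leaving out any of ORE50/ORC4 replicates 1, 2 and 3 or ORC4 replicates 1, 2 and 4 was enough. With depth class as a covariate it was 2.96 (edgeR adjusted p = 0.0288). For v the difference was 0.32 (0.01 to 0.63, edgeR adjusted p = 0.0937), for bw 0.29 (-0.25 to 0.83, edgeR adjusted p = 0.381) and for st 0.19 (-0.02 to 0.41, edgeR adjusted p = 0.148). Without ORC4 replicate 4, its highest library, bw passed (0.65, edgeR adjusted p = 0.0135), and without ORE50/ORC4 replicate 2 v passed (0.41, edgeR adjusted p = 0.0401). Depth and genotype coincide in this comparison. White was 0 in every ORC4 library and 0.568 to 1.77 TPM in ORE50/ORC4.

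Between the stages of wild type 4 members rose with age and cn fell, where 89.9% of the 11636 tested genes were called, 48.1% as higher and 41.8% as lower. Vermilion was nearly silent early, with 0.562, 0.106 and 0.0499 TPM (11, 1 and 1 counts) at 2 to 4 h, and rose by 8.35 on the log2 scale (SE 0.39, edgeR adjusted p = 1.76e-08). Scarlet had 0.354, 0.0558 and 0.129 TPM at 2 to 4 h and rose by 5.18 (SE 0.36, edgeR adjusted p = 3.35e-07). Both sizes rest on early replicate 1, without which they were 10.22 for v and 6.04 for st. That library also had the highest sum of the list of differentiated tissues among the early ones, 243 TPM against 136 and 196, and the part of this in the values was not tested.

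White averaged 7.88 ± 0.776 TPM at 14 to 17 h (SD, n = 5) and 1.10 ± 0.216 TPM at 2 to 4 h (SD, n = 3), a 7.08-fold rise (log2 2.82, SE 0.16, edgeR adjusted p = 7.84e-08). Brown averaged 2.25 ± 0.313 TPM late (SD, n = 5) and 0.884 ± 0.144 TPM early (SD, n = 3), a rise of 1.35 on the log2 scale (SE 0.16, edgeR adjusted p = 1.98e-05). Its sign turned, to -2.06, when it was summed with mi, which alone fell with age by 2.46 on the log2 scale. Cinnabar averaged 1.06 ± 0.658 TPM late (SD, n = 5) and 9.26 ± 2.16 TPM early (SD, n = 3), 8.16-fold lower with age (edgeR adjusted p = 0.000164). Summed with its antisense RNA the fall was smaller, -1.09 (edgeR adjusted p = 6.03e-05). Of the ommochrome enzymes, v was thus higher and cn lower with age.

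Per kilobase of exon, late wild type ranked v first at 44.8 CPM, then w at 8.47, st at 4.09, bw at 3.84 and cn at 0.545, and the ranges of st and bw overlapped. In ORE50/ORC4 the order of the means was v at 79.9, bw at 9.06, st at 4.92, cn at 2.09 and w at 1.28. There the ranges of cn (1.02 to 3.07) and w (0.682 to 2.06) overlapped. In ORC4 the order was v at 66.0, bw at 7.66, st at 4.43, cn at 0.703 and w at 0. The order of bw and st depends on the length used: per whole span, as in TPM, st was above bw in late wild type and in ORE50/ORC4, and above bw on average in ORC4. The counts of bw come from a span mostly filled by the retrotransposon.

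Lists of related genes, which hold some of the 5 genes as well, were compared by counts beside the percentages of all tested genes given above. Of 7 tested ommochrome genes 1 was lower and 4 higher in ORE50/ORC4 (median log2 fold change 0.28, all genes 0.01), and 2 were lower and 1 higher in ORC4 (0.05, all genes 0.00). Without st, v and cn, 4 tested genes remain, of which 1 was lower and 1, kar, higher in ORE50/ORC4 (median -0.03), while in ORC4 2 were lower and the others not called (median -0.17). Rab32, a small GTPase of pigment granule formation, was lower in both, at 15.6 ± 1.94 TPM in ORE50/ORC4 (SD, n = 4) and 18.0 ± 1.06 TPM in ORC4 (SD, n = 4) against 27.8 ± 1.16 TPM in late wild type (SD, n = 5). Kyat, a kynurenine aminotransferase, was lower in ORC4 by 0.32 on the log2 scale (edgeR adjusted p = 0.0123).

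Of 11 tested pteridine genes 4 were lower and 4 higher in ORE50/ORC4 (median -0.17), and 3 were lower and 4 higher in ORC4 (median -0.04). Without bw, 1 fewer was higher in each mutant. Punch (Pu), the GTP cyclohydrolase that opens the pteridine route, averaged 4.75 ± 0.545 TPM in ORE50/ORC4 and 5.21 ± 1.17 TPM in ORC4 (SD, n = 4 each). Its log2 fold changes against late wild type were -1.37 and -1.38 (edgeR adjusted p = 2.97e-05 and 3.61e-05). Rosy (ry), the xanthine dehydrogenase that makes the pteridine isoxanthopterin, went the other way, at 34.2 ± 5.98 TPM in ORE50/ORC4 (SD, n = 4) and 49.8 ± 3.07 TPM in ORC4 (SD, n = 4), against 14.6 ± 0.943 TPM in late wild type (SD, n = 5). Its log2 fold changes were 1.30 and 1.70 (edgeR adjusted p = 1.58e-07 and 1.49e-08), and ry overlaps no gene. The molybdenum cofactor gene cin also separated the mutants, with 24.0 ± 0.912 TPM in ORE50/ORC4 and 61.1 ± 14.3 TPM in ORC4 (SD, n = 4 each, edgeR adjusted p = 0.000196).

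**Figure D5:**
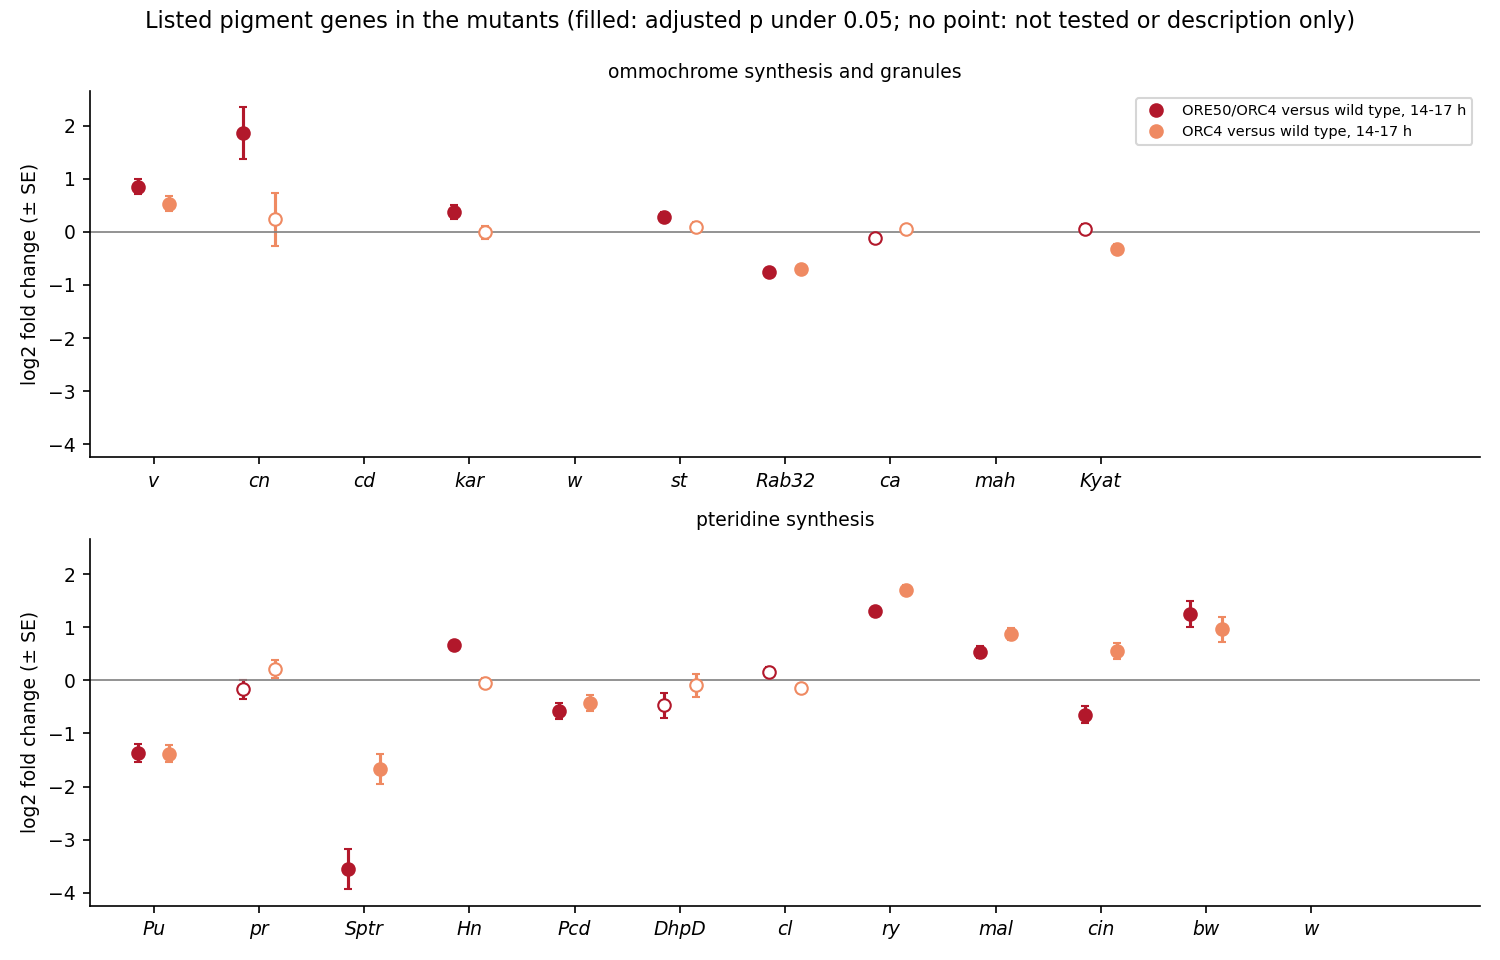
Log2 fold change ± SE of the listed ommochrome and pteridine genes in ORE50/ORC4 (dark) and ORC4 (light) against late wild type. Filled points passed an edgeR adjusted p of 0.05, and in both mutants Pu and Rab32 lie below the line while ry, bw and v lie above it.

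Of 18 tested genes of granule trafficking 5 were higher and the others not called in ORE50/ORC4, and 2 were lower and 3 higher in ORC4. Of all tested genes 27.0% were higher and 27.0% lower in ORE50/ORC4, and 15.5% higher and 17.2% lower in ORC4. The counts of trafficking genes higher are near those shares. Among 12 tested ABCG transporter genes other than w, 1 was lower in each mutant, CG5853, by 1.05 on the log2 scale in ORE50/ORC4 and by 0.80 in ORC4, and 3 were higher in ORE50/ORC4 and 2 in ORC4. Without st and bw, 1 of 10 was higher in each mutant. Of 14 tested Malpighian tubule genes 6 were lower and 1 higher in ORE50/ORC4 and 8 were lower and the others not called in ORC4, where 27.0% and 17.2% of all tested genes were lower in ORE50/ORC4 and ORC4. Added up, the list gave 112 to 144 TPM in ORE50/ORC4 libraries, 124 to 134 in ORC4 libraries and 149 to 167 in late wild-type libraries, while v was higher in the mutants. Kr was at 0 in all 3 late groups, and Uro, the urate oxidase of the mature tubule, was at 0 in ORE50/ORC4. Uro was too low in the late libraries to pass the filter on low counts, and ORE50/ORC4 was the shallower mutant, so this 0 shows no loss. The largest fall among the tested tubule genes was that of Eglp2, by 1.36 on the log2 scale in ORE50/ORC4 and by 1.59 in ORC4. Its edgeR adjusted p was 2.2e-06 and 6.74e-07. The span of Eglp2 overlaps Eglp4 and Eglp3, with fractional counts in 15 libraries. That of CG5853 overlaps CG4619, with fractional counts in 16. The part of shared reads in these falls was not tested. The leucokinin receptor Lkr was lower in both mutants, by 0.92 on the log2 scale in ORE50/ORC4 and by 0.97 in ORC4 (edgeR adjusted p = 0.00053 and 0.000506). Prip was the 1 gene higher in ORE50/ORC4 (0.41, edgeR adjusted p = 0.00438). Larval eye genes added up to 30.1 to 36.8 TPM in ORE50/ORC4 libraries, 31.8 to 37.1 in ORC4 libraries and 56.8 to 69.7 in late wild-type libraries, and of 10 tested 1 was lower and 1 higher in ORE50/ORC4 and 3 were lower and the others not called in ORC4. Much of that difference lay in 1 gene: without toy the sums were 25.1 to 29.6 TPM in ORE50/ORC4 libraries, 25.1 to 31.5 in ORC4 libraries and 30.9 to 35.1 in late wild-type libraries. The eye regulator toy was lower in both mutants, at -2.26 on the log2 scale in ORE50/ORC4 and -2.44 in ORC4 (edgeR adjusted p = 4.62e-09 and 3.64e-09). The part of tubule and eye cells in the members' values was not tested.

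Across the 13 late libraries the genes most like each member on log2(TPM + 1), by Pearson's r, were Jheh3 for w (0.977), CG9743 for st (0.882), Cad86C for bw (0.988), CG42394 for v (0.963) and CG42369 for cn (0.942). These libraries share genotype and depth classes, and the values are a description.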

How the data were processed

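The authors deposited 1 table per library with estimated counts and TPM values (scaled to gene length and library total, per the file headers). The submitters' processing notes name CASAVA 1.8.2, kallisto and dm6. Identifiers were matched to the Ensembl BDGP6 annotation for 17625 of 17753 genes, and listed lengths equalled the whole gene span for 99.3% of these. Rounded estimated counts went into edgeR 4.0.16 under R 4.3.3 (quasi-likelihood, TMM, filterByExpr with a minimum of 10 counts, Benjamini-Hochberg over all genes, called under 0.05). The 13 late libraries were fitted together and the 8 wild-type libraries in a separate fit. SE and 95% intervals follow from the test's statistic, the intervals with its total degrees of freedom (residual plus prior). Alternatives used DESeq2 1.42.0, RLE scaling, other filters, limma 3.58.1 (TPM on a log2 scale with 1 or 0.1 added), fewer libraries, a depth term and a replicate block, the level of w summed with kirre and, chosen after seeing the data, fits with members summed with the gene overlapping them. Most named pathway genes came, per list and direction, from the 2 with the greatest change among called genes with non-overlapping groups. These also had a mean of at least 100 counts in the higher group. Not all such genes are named, and a few others, among them kar with overlapping groups, are named outside this rule. Members and lists were chosen with earlier results of these data known. The script was tested on simulated data.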

Additional observations from a re-analysis of the deposited data

How the results depend on the processing

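Of 321 member results under alternatives, 295 kept their direction and their side of the threshold. Fits with each member summed with its overlapping gene were chosen after seeing the data. In ORE50/ORC4 against late wild type these left 1 member lower and 2 higher, with st at -1.04 and cn at -0.22. In ORC4 against late wild type they left 2 lower and 1 higher, with st at -0.91 and cn at -0.72. Between the stages they left 2 lower, with bw at -2.06. The level of w summed with kirre stood at 64.0% of late wild type in ORE50/ORC4. The part of shared reads in these turns was not tested. In ORC4 against late wild type 1 member was higher with wild-type replicates 1, 2 and 3 alone, where v was lost. With the same-numbered libraries and no block it was also 1, where bw was lost, though bw passed there under the block (edgeR adjusted p = 0.0134). Leaving out single libraries there gave 1099 to 1897 genes higher. Between the mutants limma gave 846 genes higher on log2(TPM + 1) and 830 on log2(TPM + 0.1), the second with 0 members higher, and leaving out single libraries gave 0 to 1. Same-numbered libraries correlated at -0.251 to 0.544 in their deviations, not above 0.1 in every pair, so the main fits used no pairing. Against late wild type, 2 of 3 libraries of each mutant correlated best with their own number, and between the mutants 1 of 4 did. These few pairs cannot settle whether equal numbers mark a shared batch. Between the mutants the replicate block gave 2 members higher, and the same libraries without it 2, with bw at 0.70 (edgeR adjusted p = 0.00307) under the block and 0.71 (edgeR adjusted p = 0.0237) without. Counts were low for w in ORE50/ORC4, at 14.5 to 58.4, and for v in early wild type, at 1 to 11. The cause of the other changes was not tested.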
